A study of Trichoderma reesei with 9 samples.

Results

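The 2 deletions of vacuolar sorting genes in the cellulase-producing fungus Trichoderma reesei are described here as 1 contrast of the average of the Δvps13 and Δvps21 means minus the mean of their parent Rut-C30. Of 10348 genes in the deposited count table, 8906 had enough counts to be tested. The genes described in depth are the 1888 whose 6 deletion libraries all lay on 1 side of all 3 Rut-C30 libraries: 853 genes above and 1035 genes below. The study deleted 1 of these genes at a time in Rut-C30, with 3 RNA-seq libraries each of Rut-C30-delta-vps13, Rut-C30-delta-vps21 and Rut-C30, and its purpose was to compare the transcriptomes. All 9 libraries came from mycelia after 96 h on Avicel, a microcrystalline cellulose that induces the cellulase genes. Rut-C30 is called wild type in the labels but is itself a mutagenised cellulase hyperproducer that carries a truncated gene for the carbon repressor Cre1, and both deletion strains carry that background too. How many transformants stand behind each deletion strain, and whether the 3 libraries of a strain came from separate cultures, is not given in the sources used here, so every p measures only the spread between these libraries, which may be technical.

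In yeast, Vps21 is a Rab5-type GTPase that directs traffic from the Golgi and the cell surface into endosomes, and Vps13 moves lipids where organelles touch. Both were found as genes needed to deliver proteins to the vacuole, the fungal counterpart of the lysosome. T. reesei on cellulose makes large amounts of secreted cellobiohydrolases, endoglucanases and accessory enzymes, which fold in the endoplasmic reticulum (ER) and leave through the Golgi. Transcription of these enzymes is driven by the activator Xyr1 and held back on glucose by Cre1.

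Library totals lay between 12127372 and 13493219 counts, with 9466 to 9722 genes detected in each. Expression is given as CPM (counts per 1e6 of TMM-scaled library size), and each difference is a log2 ratio ± its SE from edgeR's quasi-likelihood fit. A gene is called when its Benjamini-Hochberg adjusted p over all tested genes is at most 0.05. The Δvps13 libraries did not form a tight group. On the first principal component, with 52.8% of the variance, Δvps13 lay at 14, 8.83 and -42.1 and Δvps21 at 59.2, 47.3 and 61, against -47.5, -51.3 and -49.6 in Rut-C30, so Δvps13 replicate 3 lay beside the parent. The median SD between the libraries of a strain was 0.469 in Δvps13 and 0.216 in Δvps21, against 0.183 in Rut-C30 (log2 CPM). No gene is named vps13 or vps21, so the deletion of vps13 could not be checked in any Δvps13 library, replicate 3 included. Of 2 genes described as rab5-like GTPases, TRIREDRAFT_123015 had 1740, 1295 and 1147 counts in Δvps13 and 2, 2 and 2 counts in Δvps21, against 1607, 1365 and 1529 counts in Rut-C30. The other, TRIREDRAFT_122593, had 2432, 2289 and 1980 counts in Δvps13 and 2596, 2385 and 2231 counts in Δvps21, against 2123, 2022 and 2123 counts in Rut-C30. Reads of TRIREDRAFT_123015 were thus nearly absent in Δvps21 alone, the pattern that deletion of this gene would leave. Its fall in Δvps21 is therefore not read here as a change of regulation. The pooled difference of TRIREDRAFT_123015 was log2 -4.54 ± 0.18, adjusted p = 3.01e-07, although its own difference from Rut-C30 was 0.21 in Δvps13 and -9.29 in Δvps21. A large change in 1 strain was thus enough for a call in the average. This gene overlapped with the parent and is not among the genes without overlap.

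The pooled contrast called 2410 of the 8906 tested genes (27.1%), 1189 up (13.4%) and 1221 down (13.7%). No overlap was found for 21.2% of the tested genes, 9.58% above and 11.6% below, and 705 genes were both called up and above all Rut-C30 libraries (7.92%) while 852 were both called down and below (9.57%). The split of calls depends on the scaling. With library totals in place of TMM, 514 genes were called up and 1901 down, the median log2 of all tested genes moved to -0.22, against 0.02 under TMM, and 259 genes lay above and 1855 below without overlap. Directions below are relative to the TMM-scaled median. Of the genes without overlap, 148 above and 183 below missed the threshold, and 484 genes called up and 369 called down overlapped in at least 1 library.

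The genes without overlap had a median log2 of 0.95 on the upper side (0.85 in Δvps13 and 1.03 in Δvps21) and -1.07 on the lower side (-0.98 and -1.12), values that the rule itself pushes away from 0. The upper genes changed by 1 log2 unit or more in 400 cases and the lower genes in 567. The upper genes together took 24, 18 and 18.8% of the scaled counts in Δvps13 and 25.9, 23.8 and 24.6% in Δvps21, against 9.91, 8.81 and 9.39% in Rut-C30. The lower genes took 4.18, 3.42 and 3.57% in Δvps13 and 3.7, 3.73 and 3.38% in Δvps21, against 8.92, 8.51 and 7.94% in Rut-C30. Gene models without a reference identifier made up 3.52% of the upper and 12.9% of the lower genes, against 10.1% of all tested genes. On the lower side 143 genes averaged under 1 CPM in the deletions, and on the upper side 51 averaged under 1 CPM in Rut-C30, so many of the largest ratios rest on few counts.

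Cellulase genes had the highest share called up of the lists with more than 5 tested genes. Of 15 tested cellulases and cellulose-active proteins, 11 were called up, all 11 without overlap, and 1 was called down, with a median log2 of 1.79. The background over all tested genes was 13.4% called up, 7.92% called up without overlap, 13.7% called down and a median of 0.02. The cellobiohydrolase gene cel7a, which encodes the main secreted cellulase, had 23576, 29605 and 48687 CPM in Δvps13 and 39824, 48659.9 and 45666 CPM in Δvps21, against 9354, 9742 and 11836 CPM in Rut-C30. All 6 deletion libraries stood far above the parent libraries, and Δvps13 replicate 1 was the lowest of them (log2 1.92 ± 0.39, adjusted p = 0.0055). The glycoside hydrolase family 6 gene TRIREDRAFT_72567, of the family that holds the other main cellobiohydrolase, had 17470.4, 25506 and 46926 CPM in Δvps13 and 32317, 41141 and 42111 CPM in Δvps21, against 6065, 4799 and 6215 CPM in Rut-C30. Within Δvps13 its replicate 3 was the highest library and replicate 1 the lowest (log2 2.58 ± 0.43, adjusted p = 0.00212). The endoglucanase gene cel7b had 611, 997 and 1798 CPM in Δvps13 and 1780.2, 2388 and 1941 CPM in Δvps21, against 433, 309 and 414 CPM in Rut-C30 (log2 1.98 ± 0.35, adjusted p = 0.00274).

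The largest rise of the list was that of cip2. This gene, which encodes a glucuronoyl esterase with a cellulose-binding module, had 2054, 765 and 1390.3 CPM in Δvps13 and 1628, 1338 and 1411 CPM in Δvps21, against 256, 162 and 218 CPM in Rut-C30. The groups were far apart, and the log2 difference from Rut-C30 was 2.73 in Δvps13 and 2.78 in Δvps21 (log2 2.75 ± 0.34, adjusted p = 0.000512). The family 45 endoglucanase gene TRIREDRAFT_49976 had 3259.8, 2126 and 4197 CPM in Δvps13 and 2331, 2525 and 2271 CPM in Δvps21, against 508, 363 and 504 CPM in Rut-C30 (log2 2.59 ± 0.30, adjusted p = 0.000381). Of the other called members, cip1, which encodes another protein with a cellulose-binding module, rose by a log2 of 1.55 and the expansin-type gene TRIREDRAFT_123992 by 1.88. The polysaccharide monooxygenase genes cel61a and cel61b rose by 1.73 and 1.79, and the endoglucanase genes cel5a and cel12a by 1.42 and 1.85. The member called down was the family 12 gene TRIREDRAFT_77284, at 63.9 ± 24.4 CPM in Δvps13 and 123 ± 21.4 CPM in Δvps21, against 141 ± 22.4 CPM in Rut-C30 (mean ± SD, n = 3), a difference that overlapped and lost its call in 7 of the 9 fits with 1 library left out, at an adjusted p of up to 0.205. With any single library left out, 9 to 11 of the 15 genes were called up. Without Δvps13 replicate 3 the count was 11, and with library totals it was also 11.

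Of 13 tested beta-glucosidases, which split cellobiose to glucose, 2 were called up (15.4%) and 1 down (7.69%). The shares over all tested genes were 13.4% up and 13.7% down. The major extracellular beta-glucosidase gene cel3a had 152, 221 and 558 CPM in Δvps13 and 376, 564 and 438 CPM in Δvps21, against 119, 81.4 and 110.0 CPM in Rut-C30 (log2 1.87 ± 0.39, adjusted p = 0.00648). The family 3 gene TRIREDRAFT_76227 went the other way, with 23.6, 57.9 and 90.6 CPM in Δvps13 and 36.3, 54 and 43.5 CPM in Δvps21, against 111, 128 and 123 CPM in Rut-C30 (log2 -1.25 ± 0.31, adjusted p = 0.0144), and Δvps13 replicate 3 was the deletion library nearest to the parent. Without Rut-C30 replicate 2 or 3 this fall was no longer called (adjusted p = 0.0635 and 0.0561).

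Enzymes of hemicellulose and pectin split into a rising and a falling set. Of 23 tested members, 8 were called up (34.8%) and 6 down (26.1%), with a median log2 of 0.79. Both shares stood above those over all tested genes, 13.4% up and 13.7% down. The largest rise was that of the carbohydrate esterase family 5 gene TRIREDRAFT_54219, with 132, 18.3 and 31.3 CPM in Δvps13 and 50.6, 29 and 39.2 CPM in Δvps21, against 3.85, 1.4 and 1.28 CPM in Rut-C30. Every deletion library lay above every parent library by a wide margin, and Δvps13 replicate 1 was far above the others (log2 4.47 ± 0.71, adjusted p = 0.00164). The gene axe1, for an esterase that takes acetyl groups off xylan, had 2656, 747 and 1143 CPM in Δvps13 and 1151, 798 and 1018 CPM in Δvps21, against 193, 134 and 172 CPM in Rut-C30 (log2 2.88 ± 0.41, adjusted p = 0.00097). The family 28 gene TRIREDRAFT_103049, of a family of polygalacturonases, had 31.9, 27 and 115 CPM in Δvps13 and 74.8, 83.3 and 77.3 CPM in Δvps21, against 7.96, 5.3 and 7 CPM in Rut-C30 (log2 3.31 ± 0.47, adjusted p = 0.000944).

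The xylanase genes had smaller log2 values. The family 11 xylanase gene TRIREDRAFT_123818 had 1685, 1641 and 4282 CPM in Δvps13 and 1314, 1653 and 1453 CPM in Δvps21, against 578, 626 and 740.1 CPM in Rut-C30, with Δvps13 replicate 3 well above the rest (log2 1.58 ± 0.35, adjusted p = 0.00831, and adjusted p = 0.0517 without Rut-C30 replicate 2). The family 10 xylanase gene TRIREDRAFT_120229 (log2 1.78), the mannanase gene man5a (log2 2.24) and the family 54 gene TRIREDRAFT_123283 (log2 1.78) were also called up. The 6 members called down were all of families 27 and 36, which hold alpha-galactosidases. Of 5 tested family 27 genes 4 were called down and 1 up, and both tested family 36 genes were called down. In each family 1 gene lay below without overlap, as did 11.6% of all tested genes. The family 36 gene TRIREDRAFT_64827 had 4.84, 7.67 and 10.5 CPM in Δvps13 and 2.2, 4.2 and 3.65 CPM in Δvps21, against 22.1, 23 and 22.5 CPM in Rut-C30, with no overlap in spite of the spread in Δvps13 (log2 -2.16 ± 0.26, adjusted p = 0.000457). The family 27 gene that rose, TRIREDRAFT_72704, averaged 7.68 ± 2.46 CPM in Δvps13 and 14.8 ± 1.52 CPM in Δvps21, against 2.46 ± 1.16 CPM in Rut-C30 (mean ± SD, n = 3). The count of calls up moved between 6 and 13 with a library left out, and was 10 without Δvps13 replicate 3, while the calls down moved between 2 and 6 and were 2 without each Rut-C30 library in turn. These 2 families were singled out after the values were seen.

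**Figure D1:**
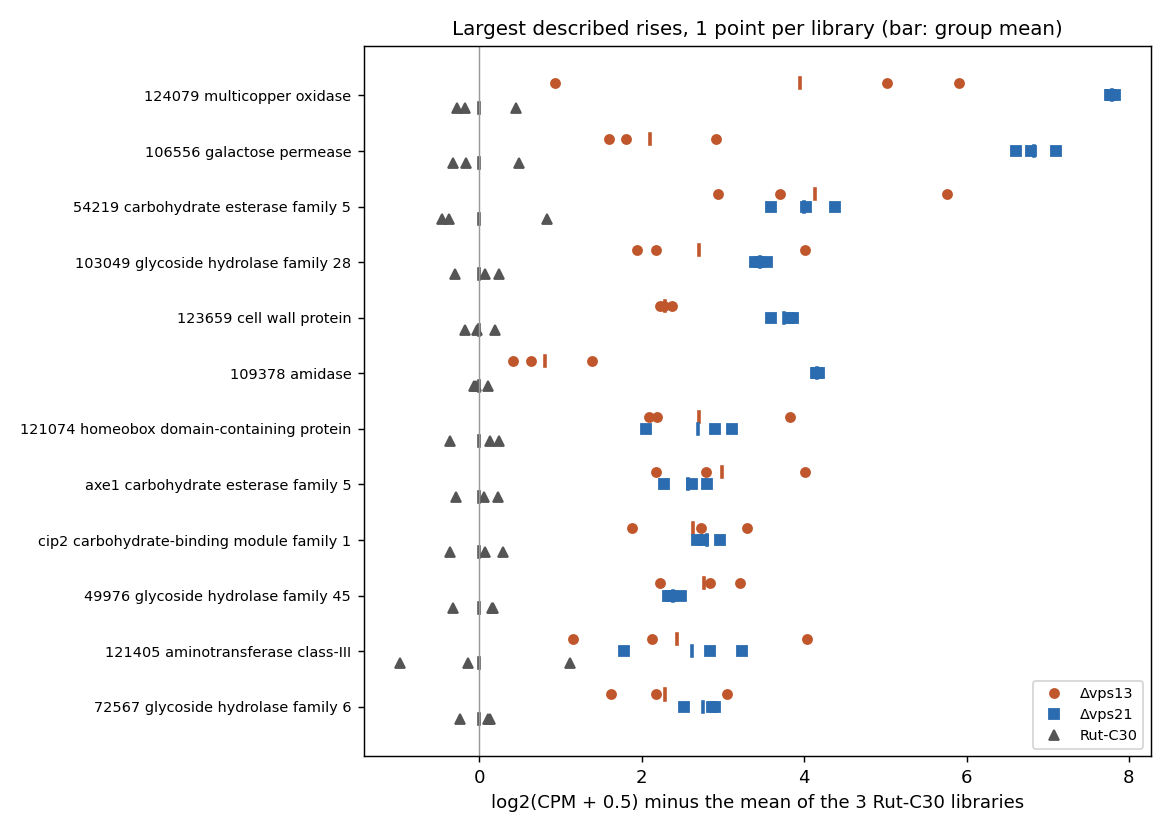
The 12 largest called rises with an informative description and no overlap, with 1 point per library on the horizontal axis as log2(CPM + 0.5) minus the Rut-C30 mean of the gene, and a short bar at each group mean. Numbers before the names are the TRIREDRAFT gene numbers. All 6 deletion libraries lie right of all 3 Rut-C30 libraries for every gene, as the rule requires, and the Δvps13 points spread more than the Δvps21 points for most genes.

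The largest rises outside the plant cell wall enzymes came from genes near 0 in the parent. This ranking covers called genes without overlap at 10 CPM or more on the higher side. The multicopper oxidase gene TRIREDRAFT_124079, of a family that holds laccases and ferroxidases, had 28, 51.9 and 1.18 CPM in Δvps13 and 193, 199 and 190.1 CPM in Δvps21, against 0.695, 0.279 and 0.226 CPM in Rut-C30. The Δvps21 libraries lay close together, whereas Δvps13 replicate 3 was barely above the parent (log2 7.43 ± 1.05, adjusted p = 0.000913). The summed counts were 8452 in the deletions and 18 in Rut-C30, a ratio of 277 per library size with a 95% counting interval of 175 to 467. TRIREDRAFT_112258, described only as a predicted protein, had 175, 334 and 5 counts in Δvps13 and 1514, 1563 and 1499 counts in Δvps21, against 5, 1 and 1 counts in Rut-C30. It showed the same order of libraries, with Δvps13 replicate 3 next to the parent (log2 7.91 ± 1.12, adjusted p = 0.000913). The ratio of its summed counts was 428 (counting interval 208 to 1066).

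Uptake and wall genes followed. The galactose permease gene TRIREDRAFT_106556, a sugar transporter, had 6.88, 15.5 and 5.9 CPM in Δvps13 and 206, 234 and 292 CPM in Δvps21, against 1.39, 1.19 and 2.48 CPM in Rut-C30. It was above the parent in both strains but by different amounts, 2.49 in Δvps13 and 7.18 in Δvps21 on the log2 scale (log2 4.83 ± 0.41, adjusted p = 7.27e-05). The cell wall protein gene TRIREDRAFT_123659 had 26.7, 27.7 and 29.6 CPM in Δvps13 and 84.5, 81.2 and 69.5 CPM in Δvps21, against 6.19, 5.23 and 4.67 CPM in Rut-C30, close together within each strain (log2 3.12 ± 0.19, adjusted p = 5.65e-06). The amidase gene TRIREDRAFT_109378 had 1.15, 1.41 and 2.71 CPM in Δvps13 and 21.3, 21.4 and 21.9 CPM in Δvps21, against 0.821, 0.698 and 0.678 CPM in Rut-C30, and in Δvps13 it was only slightly above the parent (log2 3.03 ± 0.33, adjusted p = 0.000278). The homeobox gene TRIREDRAFT_121074, the largest rise among the transcription factors, had 135, 43.1 and 40.2 CPM in Δvps13 and 81.8, 39 and 71.1 CPM in Δvps21, against 9.92, 6.91 and 10.8 CPM in Rut-C30, with a log2 difference from Rut-C30 of 2.98 in Δvps13 and 2.80 in Δvps21 (log2 2.89 ± 0.45, adjusted p = 0.00146). The class III aminotransferase gene TRIREDRAFT_121405 had 1440.4, 386 and 195 CPM in Δvps13 and 629, 304 and 826 CPM in Δvps21, against 191, 44.2 and 79.7 CPM in Rut-C30, where Δvps13 replicate 3 was only just above Rut-C30 replicate 1 (log2 2.58 ± 0.69, adjusted p = 0.0198, and adjusted p = 0.0921 and 0.0838 without Rut-C30 replicate 2 or 3).

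Some genes of protein entry into the ER and of folding there rose. Of 27 tested genes of ER entry, folding and glycosylation, 10 were called up, all 10 without overlap, 2 were called down and 15 were not called (median log2 0.41). Among all tested genes 13.4% were called up, 7.92% were called up without overlap and 13.7% were called down. The disulfide isomerase gene pdi1, which forms and reshuffles disulfide bonds in secreted proteins, had 763, 945 and 881 CPM in Δvps13 and 885, 1168 and 978 CPM in Δvps21, against 278, 353 and 347 CPM in Rut-C30. Its deletion libraries were close together and all far above the parent (log2 1.52 ± 0.21, adjusted p = 0.000913). The gene bip1, for the ER Hsp70 chaperone, had 999, 1599 and 1322 CPM in Δvps13 and 1683, 2298 and 2382 CPM in Δvps21, against 549, 543 and 592 CPM in Rut-C30 (log2 1.57 ± 0.25, adjusted p = 0.00164). The ER-resident heat shock protein gene TRIREDRAFT_35465 had 35, 38.6 and 25.5 CPM in Δvps13 and 44.9, 54.1 and 60.1 CPM in Δvps21, against 19.1, 14.2 and 13 CPM in Rut-C30 (log2 1.44 ± 0.21, adjusted p = 0.00115). The translocation channel genes TRIREDRAFT_30455 (sec62) and TRIREDRAFT_121397 (sec61 alpha subunit) rose by a log2 of 1.16 and 0.65. The calnexin gene TRIREDRAFT_73678, for a lectin chaperone, rose by 0.70 and the ER retention receptor gene TRIREDRAFT_52451 by 0.66. The rises of the membrane chaperone gene TRIREDRAFT_3067 (0.62), the mannosyltransferase gene pmt1 (0.53) and the ER membrane protein gene TRIREDRAFT_124187 (0.49) were smaller.

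The 2 ER members called down were TRIREDRAFT_104639, described as ER to Golgi transport, and the signal recognition particle receptor gene TRIREDRAFT_5350. TRIREDRAFT_104639 had 14, 21.1 and 35.2 CPM in Δvps13 and 19.1, 30.3 and 19.2 CPM in Δvps21, against 51.1, 45 and 41.7 CPM in Rut-C30 (log2 -0.99 ± 0.26, adjusted p = 0.0192), and its call was lost without Δvps21 replicate 3 or any of the Rut-C30 libraries, at an adjusted p of up to 0.0847. The 10 ER calls up became 4 with library totals and between 4 and 13 with a library left out, the lowest without Rut-C30 replicate 2 or 3, while the list's median stayed between 0.41 and 0.47 in those fits and was 0.18 with library totals. Among 5 heat shock and chaperone genes, 4 were called up, of which 2 also belong to the ER list and the others are the mitochondrial hsp60 gene TRIREDRAFT_119731 (log2 0.97) and the mitochondrial hsp70 gene TRIREDRAFT_120053 (log2 1.13). Without any 1 of the Rut-C30 libraries only 1 of the 5 was called. The polyubiquitin gene ubi4 had 2249.6, 2166 and 1925 CPM in Δvps13 and 2702, 2911 and 3906 CPM in Δvps21, against 841, 644 and 828 CPM in Rut-C30 (log2 1.75 ± 0.25, adjusted p = 0.000996). Of 27 tested proteasome and ubiquitin genes, 4 were called up (14.8%) and none down, against 13.4% up and 13.7% down over all tested genes.

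Vesicle transport genes were called up at about the background share. Of 82 tested members 12 were called up (14.6%) and 4 down (4.88%), against 13.4% up and 13.7% down over all tested genes. The 4 called down include the rab5-like gene TRIREDRAFT_123015. It had 2, 2 and 2 counts in Δvps21, as a deleted gene would. In the comparison of Δvps13 with Rut-C30 it was not called (log2 0.21). SNARE proteins pair to fuse vesicles with their target membrane, and of 15 tested genes described as v-SNARE or t-SNARE, 6 were called up, with log2 values between 0.56 and 1.09, and 1 was called down. The SNARE genes were counted apart after the values were seen. The syntaxin gene TRIREDRAFT_3340 had 31.7, 28.1 and 31.2 CPM in Δvps13 and 39.7, 44.6 and 52 CPM in Δvps21, against 21.2, 13.2 and 17.9 CPM in Rut-C30 (log2 1.09 ± 0.19, adjusted p = 0.00294). Another t-SNARE gene, TRIREDRAFT_103618, was called down with 16.4, 22 and 22.5 CPM in Δvps13 and 14, 15.6 and 9.75 CPM in Δvps21, against 26.5, 22.6 and 25.4 CPM in Rut-C30 (log2 -0.61 ± 0.20, adjusted p = 0.0425), a call that 7 of the 9 fits with 1 library left out lost (adjusted p up to 0.154). Of 19 genes of endosomes, vacuolar sorting and autophagy, the compartment in which Vps13 and Vps21 themselves act, 3 were called up and 2 down. The vacuolar sorting gene TRIREDRAFT_121652 had 19.3, 25.5 and 34.2 CPM in Δvps13 and 23.5, 31.6 and 21.1 CPM in Δvps21, against 45.7, 47.4 and 44.3 CPM in Rut-C30 (log2 -0.82 ± 0.20, adjusted p = 0.0133, and adjusted p up to 0.0653 without a Rut-C30 library). The Golgi sorting nexin gene TRIREDRAFT_106014 had 82.9, 129 and 140.1 CPM in Δvps13 and 186, 219 and 253 CPM in Δvps21, against 77.8, 81.6 and 102 CPM in Rut-C30, where Δvps13 replicate 1 overlapped the parent (log2 0.88 ± 0.21, adjusted p = 0.013, and adjusted p = 0.0648 and 0.0746 without Rut-C30 replicate 1 or 2).

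Cytosolic ribosomal proteins had the highest share called down of the 24 lists. Of 49 tested genes none was called up by edgeR (0 at an unadjusted p under 0.05 and 0 by DESeq2) and 26 were called down, 27 lay below without overlap, and 48 of the 49 had a negative log2. Among all tested genes 13.7% were called down and 11.6% lay below without overlap. The median of the list was -0.58, with -0.54 in Δvps13 and -0.63 in Δvps21, and no member differed between the 2 deletions. The largest fall was that of model 968 of those without a reference identifier, annotated as ribosomal protein L41, with 267, 235 and 486 CPM in Δvps13 and 294, 407 and 301 CPM in Δvps21, against 1772, 1312 and 957 CPM in Rut-C30 (log2 -2.02 ± 0.28, adjusted p = 0.000784). The count of calls was sensitive to the libraries used, with 4 calls down without Rut-C30 replicate 1 or 2, 9 without Rut-C30 replicate 3, 10 without Δvps21 replicate 1 or 3, 18 without Δvps13 replicate 2 and 40 without Δvps13 replicate 3. The median stayed between -0.67 and -0.52 in all of these fits, and with library totals 46 were called down at a median of -0.86.

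The list that joins glycolysis with the citric acid cycle had 29 tested members, of which 9 were called up (31.0%) and 1 down (3.45%). The shares over all tested genes were 13.4% up and 13.7% down. All 9 calls up were among 18 genes sorted to the citric acid cycle by their descriptions (median log2 0.71). This division of the list was made after the values were seen. The 18 include TRIREDRAFT_119896 and TRIREDRAFT_62153, described as malate dehydrogenases but annotated with a malic enzyme domain, of which only the first was called. Of the other 11 genes, of glycolysis and pyruvate metabolism, none was called up and 1 was called down (median -0.15). The aconitase gene TRIREDRAFT_77336, for the enzyme that turns citrate into isocitrate, had 1604, 1629 and 577 CPM in Δvps13 and 1777, 1019.8 and 1625 CPM in Δvps21, against 536, 407 and 392 CPM in Rut-C30. Δvps13 replicate 3 was only just above Rut-C30 replicate 1, and the call did not hold without Rut-C30 replicate 2 or 3 (log2 1.62 ± 0.36, adjusted p = 0.00902, and adjusted p = 0.057 and 0.0504 without them). The citrate synthase gene cit1 had 379, 443 and 386 CPM in Δvps13 and 600.1, 485 and 696 CPM in Δvps21, against 201, 251 and 279 CPM in Rut-C30 (log2 1.01 ± 0.21, adjusted p = 0.00597). The NAD-dependent isocitrate dehydrogenase subunit genes TRIREDRAFT_120378 and idh2 rose by a log2 of 1.03 and 1.00, and TRIREDRAFT_119896 rose by 1.13. Not called were TRIREDRAFT_123729, a malate dehydrogenase gene without the malic enzyme domain (log2 -0.19), and the succinate dehydrogenase genes TRIREDRAFT_123198 (0.22) and TRIREDRAFT_121019 (0.12). The succinate-CoA ligase genes were not called either (log2 -0.76 to 0.23). The glycolytic member that fell, the phosphofructokinase-like gene TRIREDRAFT_2091, had 21.3, 28 and 29.7 CPM in Δvps13 and 20.1, 25.3 and 22.8 CPM in Δvps21, against 37.7, 48.3 and 40.2 CPM in Rut-C30 (log2 -0.78 ± 0.17, adjusted p = 0.00831, and 0.064 without Rut-C30 replicate 2). The glycolytic genes pgk1 and eno1 were not called (log2 -0.94 and -0.51, adjusted p = 0.0627 and 0.221). Calls up over the list fell to 5 with library totals, with 5 calls down, and to 5, 2 and 3 without Rut-C30 replicate 1, 2 and 3 in turn. The hexokinase gene TRIREDRAFT_79677 shows what the average hides, with 71, 108 and 68.2 CPM in Δvps13 and 1294, 1253 and 1427 CPM in Δvps21, against 296, 294 and 289 CPM in Rut-C30. It lay below the parent in 1 strain and above it in the other, and it was not called in the pooled contrast (log2 0.17 ± 0.21, adjusted p = 0.556).

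**Figure D2:**
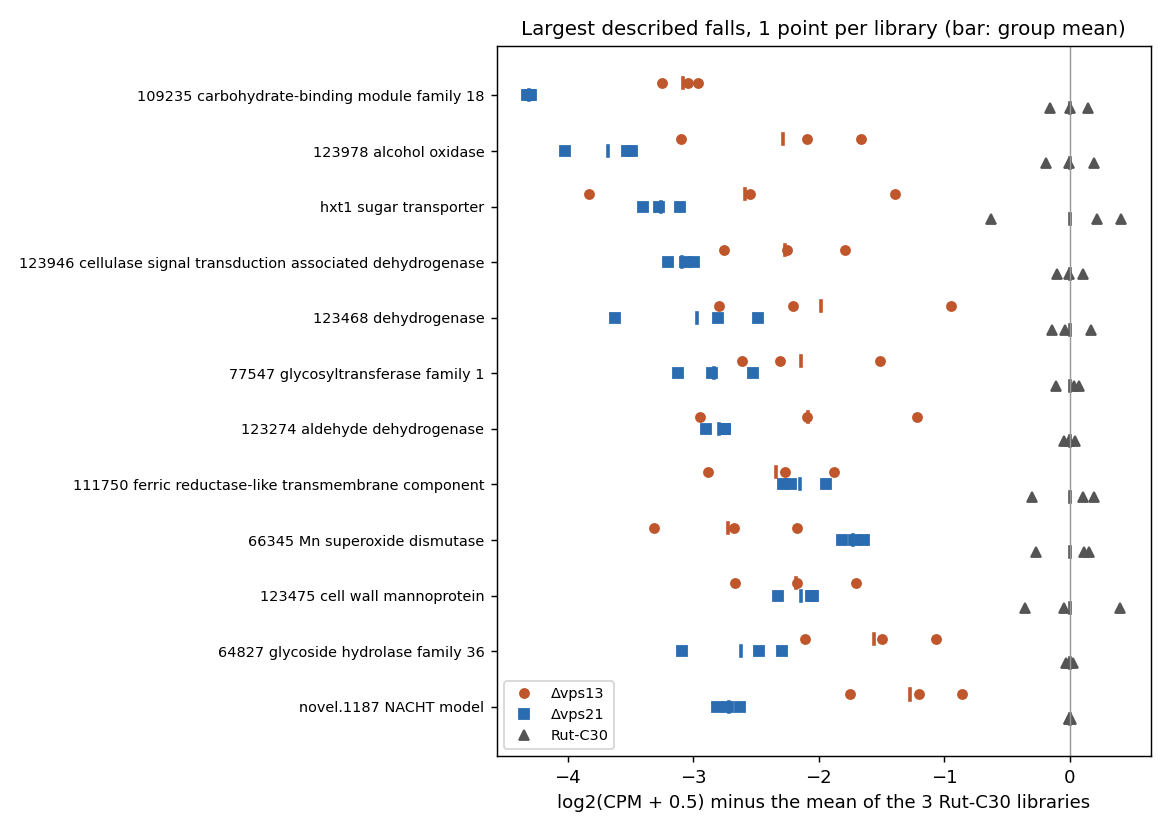
The 12 largest called falls with an informative description and no overlap, with 1 point per library on the horizontal axis as log2(CPM + 0.5) minus the Rut-C30 mean of the gene, and a short bar at each group mean. Numbers before the names are the TRIREDRAFT gene numbers. All 6 deletion libraries lie left of all 3 Rut-C30 libraries for every gene, and Δvps21 lies farther left than Δvps13 for most, but not for the Mn superoxide dismutase, ferric reductase-like and mannoprotein genes.

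Among the called genes without overlap at 10 CPM or more on the higher side, the largest fall belonged to TRIREDRAFT_109235. This gene encodes a protein with a family 18 carbohydrate-binding module, a chitin-binding fold. It had 14, 11 and 6 counts in Δvps13 and 1, 1 and 1 counts in Δvps21, against 174, 140 and 162 counts in Rut-C30. Both deletions were nearly without reads of this gene (log2 -5.31 ± 0.28, adjusted p = 3.69e-06). The summed counts gave a ratio of 0.0421 per library size (counting interval 0.0288 to 0.0596). The undescribed gene TRIREDRAFT_106627 had 0.637, 1.15 and 2.36 CPM in Δvps13 and 0.355, 0.969 and 0.17 CPM in Δvps21, against 10.4, 13.7 and 12 CPM in Rut-C30 (log2 -3.88 ± 0.43, adjusted p = 0.000278). TRIREDRAFT_123978, an alcohol oxidase gene, had 17, 34.7 and 47 CPM in Δvps13 and 12.5, 12.9 and 8.73 CPM in Δvps21, against 131, 149 and 171 CPM in Rut-C30, with all Δvps21 libraries below all Δvps13 libraries (log2 -2.96 ± 0.27, adjusted p = 8.94e-05).

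Transporter and redox enzyme genes were among the next largest falls. The hexose transporter gene hxt1 had 51.6, 125 and 281 CPM in Δvps13 and 76.1, 69.6 and 85.4 CPM in Δvps21, against 477, 859 and 979 CPM in Rut-C30. The parent libraries differed among themselves, and even so the highest deletion library, Δvps13 replicate 3, lay below the lowest of them (log2 -2.83 ± 0.41, adjusted p = 0.00099). The dehydrogenase gene TRIREDRAFT_123946, linked to cellulase signalling in its description, had 12.6, 18 and 24.9 CPM in Δvps13 and 9.1, 10.6 and 10 CPM in Δvps21, against 87, 81.6 and 94.4 CPM in Rut-C30 (log2 -2.70 ± 0.20, adjusted p = 2.18e-05). TRIREDRAFT_66345, a manganese superoxide dismutase gene, whose product removes superoxide, had 9.05, 14.4 and 20.5 CPM in Δvps13 and 26.5, 30 and 28.4 CPM in Δvps21, against 102, 78.4 and 105 CPM in Rut-C30 (log2 -2.23 ± 0.22, adjusted p = 0.000169). It was 1 of the 11 lower genes called between the deletions with the higher level in Δvps21. The ferric reductase-like gene TRIREDRAFT_111750, of a family that reduces iron at the cell surface, had 10.8, 16.7 and 22.1 CPM in Δvps13 and 16.5, 21.1 and 17.3 CPM in Δvps21, against 94.1, 66.9 and 88.4 CPM in Rut-C30, with log2 differences of -2.34 in Δvps13 and -2.18 in Δvps21 (log2 -2.26 ± 0.22, adjusted p = 0.000127).

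The remaining described falls included a cell wall mannoprotein, a dehydrogenase and a glycosyltransferase. The mannoprotein gene TRIREDRAFT_123475 had 161, 227 and 315 CPM in Δvps13 and 205, 245 and 248 CPM in Δvps21, against 803, 993 and 1351 CPM in Rut-C30 (log2 -2.17 ± 0.24, adjusted p = 0.000288). The aldehyde dehydrogenase gene TRIREDRAFT_123274 had 4.08, 7.76 and 14.6 CPM in Δvps13 and 4.76, 4.76 and 4.24 CPM in Δvps21, against 34.7, 33.6 and 35.8 CPM in Rut-C30 (log2 -2.46 ± 0.30, adjusted p = 0.000468). Parent libraries of these 2 genes all stood far above the deletions. The family 1 glycosyltransferase gene TRIREDRAFT_77547 (log2 -2.65) and the dehydrogenase gene TRIREDRAFT_123468 (log2 -2.68) were called down at parent levels of at most 18 CPM. The gene min1, described only as a predicted protein, had 2.74, 3.17 and 10.4 CPM in Δvps13 and 6.33, 6.06 and 9.49 CPM in Δvps21, against 87.3, 89.4 and 95.9 CPM in Rut-C30 (log2 -3.87 ± 0.34, adjusted p = 8.94e-05).

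Genes for the uptake of other nutrients had calls in both directions. Of 11 sugar transporters 4 were called up and 1, hxt1, down. Of 37 genes of nitrogen, amino acid and peptide uptake, 9 were called up (24.3%) and 3 down (8.11%), with a median log2 of 0.26. The shares over all tested genes were 13.4% up and 13.7% down. The peptide transporter gene TRIREDRAFT_124002 averaged 57.2 ± 23 CPM in Δvps13 and 38 ± 5.79 CPM in Δvps21, against 8.3 ± 1.37 CPM in Rut-C30 (mean ± SD, n = 3; log2 2.49 ± 0.29, adjusted p = 0.000378). The NADP-dependent glutamate dehydrogenase gene TRIREDRAFT_73536, for the enzyme that fixes ammonium into glutamate, averaged 125 ± 62.8 CPM in Δvps13 and 62.4 ± 9.13 CPM in Δvps21, against 17.7 ± 3.61 CPM in Rut-C30 (log2 2.32 ± 0.34, adjusted p = 0.00111). A transmembrane amino acid transporter gene, TRIREDRAFT_121486, had 5.16, 9.79 and 0.472 CPM in Δvps13 and 142, 171 and 230.1 CPM in Δvps21, against 1.26, 2.16 and 1.36 CPM in Rut-C30 (log2 4.27 ± 0.64, adjusted p = 0.00124). Δvps13 replicates 1 and 2 lay above the parent and replicate 3 below it, and all Δvps21 libraries lay far higher. Another such transporter gene, TRIREDRAFT_123718, had 8.73, 2.47 and 6.73 CPM in Δvps13 and 0.0711, 0 and 0.0848 CPM in Δvps21, against 4.55, 9.7 and 8.81 CPM in Rut-C30 (log2 -3.66 ± 0.51, adjusted p = 0.000865). Its pooled fall was mainly that of Δvps21, with a log2 of -0.36 in Δvps13 and -6.96 in Δvps21. Over the fits with a library left out, calls up in the uptake list ran from 6 to 14.

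The regulators of the cellulase genes described here did not pass the threshold. The activator gene xyr1 had 845, 1792 and 2586 CPM in Δvps13 and 1715, 2009.7 and 1774 CPM in Δvps21, against 876, 980.0 and 987 CPM in Rut-C30. Δvps13 replicate 1 lay below the parent while the other 5 deletion libraries lay above it (log2 0.91 ± 0.32, adjusted p = 0.0549). Its call changed with the setting, since the adjusted p was 0.00118 without Δvps13 replicate 1, 0.0315 without Δvps13 replicate 3 and 0.00993 with DESeq2. The repressor gene cre1, truncated in all 3 strains, had 566, 1104 and 1322 CPM in Δvps13 and 1449.6, 1629.6 and 1731 CPM in Δvps21, against 834, 689 and 811 CPM in Rut-C30 (log2 0.70 ± 0.28, adjusted p = 0.0813, and adjusted p = 0.00264 without Δvps13 replicate 1 and 0.0231 with DESeq2). The gene ace1, for a further regulator of cellulase transcription, was not called (log2 0.57 ± 0.28, adjusted p = 0.144), and it was called without Δvps13 replicate 3 (adjusted p = 0.0144). Among 106 tested transcription factors as a whole 14 were called up (13.2%) and 16 down (15.1%), close to the 13.4% and 13.7% over all tested genes. The largest fall was that of the zinc cluster gene TRIREDRAFT_71080, with 0.446, 0.97 and 3.42 CPM in Δvps13 and 0.142, 0.727 and 0.17 CPM in Δvps21, against 6.51, 6.56 and 7.83 CPM in Rut-C30 (log2 -3.25 ± 0.55, adjusted p = 0.00222).

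**Figure D3:**
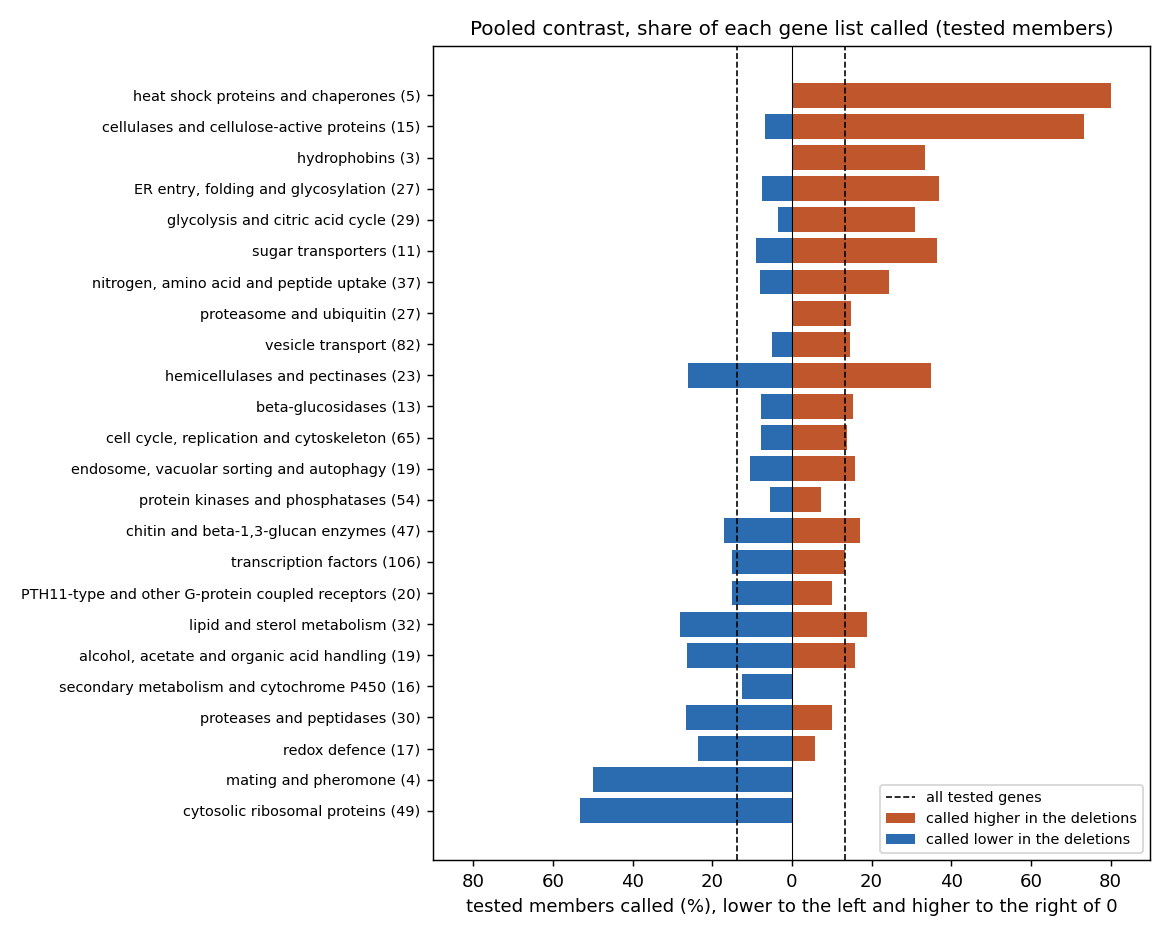
Percentage of tested members called higher (right, orange) or lower (left, blue) in the pooled contrast for 24 gene lists, with the number of tested members in brackets and dashed lines at the shares over all tested genes. Cellulases (73.3%) and the small heat shock list (80%) reach farthest right, and cytosolic ribosomal proteins (53.1%) reach farthest left.

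The other lists showed calls in both directions. Over all tested genes 13.4% were called up and 13.7% down, and 9.58% lay above and 11.6% below without overlap. Of 30 proteases and peptidases 3 were called up and 8 down, of which 6 lay below without overlap. The trypsin-like protease gene TRIREDRAFT_73897 had 3.06, 3.17 and 3.19 CPM in Δvps13 and 0.853, 1.53 and 1.1 CPM in Δvps21, against 6.57, 7.68 and 9.34 CPM in Rut-C30 (log2 -2.04 ± 0.26, adjusted p = 0.00054). Lipid and sterol genes had 6 calls up (18.8%) and 9 down (28.1%) among 32. They included falls of both delta(24)-sterol C-methyltransferase genes, which act in ergosterol synthesis, at log2 -2.08 for TRIREDRAFT_56236 and -0.58 for TRIREDRAFT_121166. Redox defence had 1 call up (5.88%) and 4 down (23.5%) among 17, with 1 catalase gene higher (TRIREDRAFT_67538, log2 1.57, with overlap) and another lower (TRIREDRAFT_73818, log2 -1.50). Chitin and beta-1,3-glucan enzymes had 8 calls each way among 47. Only 2 of them lay above and 5 below without overlap, and 18 of the 47 differed between the 2 deletions. With a library left out the calls up ran from 3 to 14 and the calls down from 5 to 10, and with library totals they were 4 and 11. The fewest, 3 up and 5 down, came without Rut-C30 replicate 2, and the most, 14 up and 10 down, without Δvps13 replicate 3.

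Of 54 kinases and phosphatases 4 were called up (7.41%) and 3 down (5.56%), and the MAP kinase gene tmk1 had 84.1, 75.9 and 92.7 CPM in Δvps13 and 59.4, 68.2 and 67 CPM in Δvps21, against 124, 156 and 152 CPM in Rut-C30, a tight fall in all 6 libraries (log2 -0.97 ± 0.15, adjusted p = 0.00147). The related MAP kinase gene tmk2 was called at a log2 of -0.71. Of 20 PTH11-type and other G-protein coupled receptors 2 were called up and 3 down. The pheromone receptor gene TRIREDRAFT_64018, 1 of 2 called among 4 mating genes, had 3.76, 4.5 and 3.19 CPM in Δvps13 and 5.12, 5.65 and 10.2 CPM in Δvps21, against 18.8, 19.7 and 18.9 CPM in Rut-C30 (log2 -1.89 ± 0.24, adjusted p = 0.000601). Cell cycle, replication and cytoskeleton genes had 9 calls up (13.8%) and 5 down (7.69%) among 65, of which only 1 and 3 lay apart. Secondary metabolism genes, matched by name, had 2 calls down and none up among 16 by edgeR (1 up at an unadjusted p under 0.05, and 1 up by DESeq2). Alcohol, acetate and organic acid genes had 3 calls up (15.8%) and 5 down (26.3%) among 19. All these stand beside 13.4% called up and 13.7% called down over all tested genes. The counts of the lists moved with the libraries. With 1 library left out the calls up ran from 5 to 19 for vesicle transport, 0 to 5 for the endosomal list, 3 to 24 for transcription factors, 0 to 11 for kinases and phosphatases and 2 to 21 for the cell cycle list, and the calls down ran from 2 to 13 for proteases and 3 to 11 for lipid and sterol genes.

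Mycelium that forms spores is another state such cultures can hold. No gene is described as brlA, abaA, wetA or a velvet protein. The gene TRIREDRAFT_112554, described as a sporulation transcription factor, was called up (log2 0.62 ± 0.17, adjusted p = 0.0242), and TRIREDRAFT_55073, described as a sporulation protein, was not (log2 0.42 ± 0.19, adjusted p = 0.123). Hydrophobins, small surface proteins of aerial hyphae and spores, were the markers found. Of 3 tested genes 1 was called up and none lay apart. The class II hydrophobin gene TRIREDRAFT_106538 had 77.5, 230.3 and 4.37 CPM in Δvps13 and 1031, 1216 and 1027 CPM in Δvps21, against 7.01, 6.42 and 7.83 CPM in Rut-C30 (log2 5.57 ± 0.97, adjusted p = 0.0027), with Δvps13 replicate 3 below the parent. The genes hfb2 and hfb3 had pooled log2 values of 0.96 and 0.88 (adjusted p = 0.144 and 0.152). The summed level of the 3 genes was 4244, 10819.7 and 1961 CPM in Δvps13 and 8969, 13345 and 10524 CPM in Δvps21, against 4400, 3571 and 3658 CPM in Rut-C30. The part of this state in the other results was not tested.

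The difference between the 2 deletions uses no Rut-C30 library, but the no-overlap rule uses the same 6 deletion libraries, so its counts over the genes without overlap are a description and test nothing. Over all tested genes 15.2% were called between Δvps21 and Δvps13 (7.68% higher and 7.55% lower in Δvps21). Of the 853 upper genes 126 were called (14.8%), of which 110 were higher and 16 lower in Δvps21. Of the 1035 lower genes 111 were called (10.7%), of which 11 were higher and 100 lower in Δvps21. Among the 7018 other tested genes 1119 were called (15.9%), of which 563 were higher and 556 lower. Examples among the named genes were TRIREDRAFT_106556 (log2 4.69) and TRIREDRAFT_109378 (log2 3.65) on the upper side and TRIREDRAFT_109235 (log2 -3.31) on the lower side. The family 2 glycoside hydrolase genes TRIREDRAFT_76852 and TRIREDRAFT_59689 were also lower in Δvps21. TRIREDRAFT_76852 had 99.8, 242 and 274 CPM in Δvps13 and 50.6, 72 and 54 CPM in Δvps21, against 308, 352 and 345 CPM in Rut-C30 (difference between the deletions log2 -1.80).

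**Figure D4:**
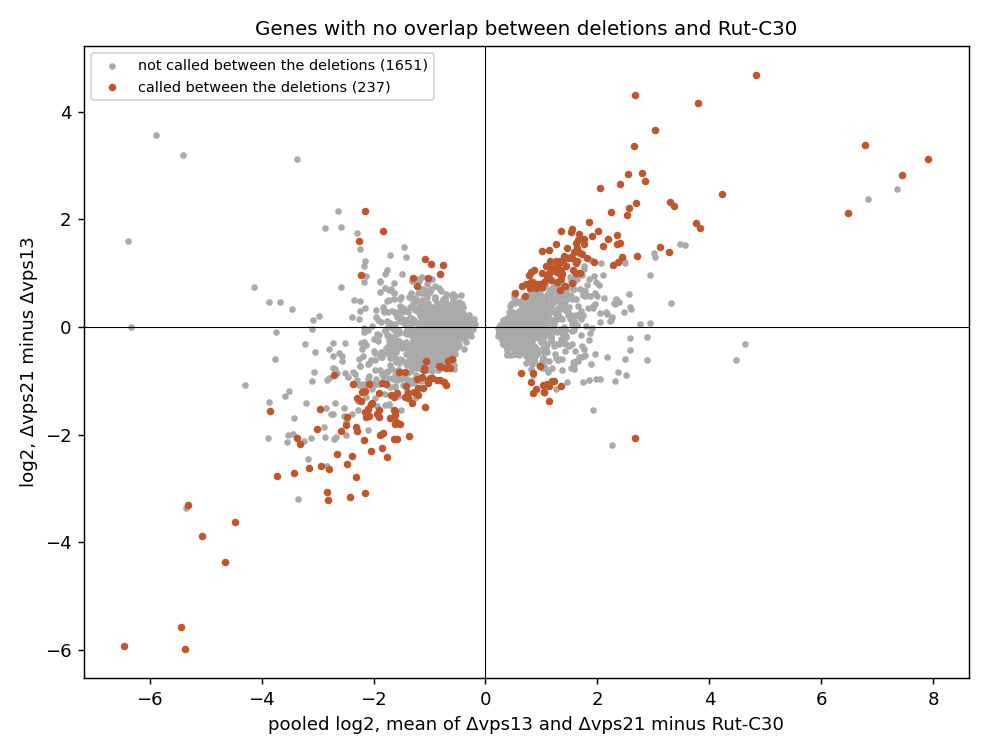
Each point is 1 of the 1888 genes without overlap, with the pooled log2 on the horizontal axis and the log2 difference of Δvps21 from Δvps13 on the vertical axis. The 237 genes called between the deletions are orange, of which 110 lie at upper right and 100 at lower left, in libraries that also chose the genes.

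Both deletions' own comparisons share the Rut-C30 libraries, so their overlap is given only as a count. In the comparison of Δvps13 with Rut-C30 10.4% of all tested genes were called, and 32.5% in that of Δvps21. Of the upper genes 306 were called in both and 36 only in the pooled contrast, and of the lower genes 303 and 85. Just inside the rule on the upper side were the methyltransferase gene TRIREDRAFT_56354, with 7.78, 6.53 and 6.49 CPM in Δvps13 and 12.4, 15.1 and 13.1 CPM in Δvps21, against 6.38, 6.14 and 4.44 CPM in Rut-C30, and the leucine zipper gene TRIREDRAFT_77191, with 118, 125 and 102 CPM in Δvps13 and 102, 72.3 and 98.8 CPM in Δvps21, against 61.4, 69.2 and 71.4 CPM in Rut-C30. On the lower side they were the t-SNARE gene TRIREDRAFT_103618 and the aldose epimerase gene TRIREDRAFT_120784, which had 65.9, 93.6 and 252 CPM in Δvps13 and 62.6, 88.7 and 59.7 CPM in Δvps21, against 253, 289 and 305 CPM in Rut-C30. Just outside it were the RNA helicase gene TRIREDRAFT_49059 and the phospholipase gene TRIREDRAFT_75311, with 36.6, 28.6 and 17.2 CPM in Δvps13 and 29.9, 27.9 and 26.1 CPM in Δvps21, against 17.2, 12.6 and 17.1 CPM in Rut-C30, and on the lower side TRIREDRAFT_4104 and TRIREDRAFT_72632, with 6.88, 5.56 and 21.8 CPM in Δvps13 and 6.75, 10.3 and 6.78 CPM in Δvps21, against 21.7, 26.2 and 22.4 CPM in Rut-C30. In these 4 genes Δvps13 replicate 3 was the single library that overlapped the parent.

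Most genes without overlap had no such neighbour. On the upper side 637 genes stood alone along the scaffolds, 80 pairs and 13 runs of 3 were found, and 3 runs of 4 and 1 of 5 were the longest. On the lower side 679 genes stood alone, with 116 pairs, 32 runs of 3 and 7 of 4. The run of 5 spans bases 43509 to 54660 of scaffold NW_006711187.1 in the deposited coordinates, whose build is not given in the sources used here. It holds a family 62 glycosyltransferase gene (TRIREDRAFT_82551), TRIREDRAFT_52829, TRIREDRAFT_112458, TRIREDRAFT_112459 and a carnitine acetyltransferase gene (TRIREDRAFT_112460). Of these 3 were called, and TRIREDRAFT_112460, for an enzyme that moves acetyl groups between compartments, had 635, 304 and 165 CPM in Δvps13 and 355, 215 and 366 CPM in Δvps21, against 85.3, 95.1 and 101 CPM in Rut-C30 (log2 1.85 ± 0.39, adjusted p = 0.00642). The change of its neighbour TRIREDRAFT_82551 was small, with 98.2, 89.9 and 100.1 CPM in Δvps13 and 88.1, 93.6 and 96.2 CPM in Δvps21, against 74.4, 82.1 and 76.3 CPM in Rut-C30 (log2 0.28 ± 0.14, adjusted p = 0.159), although it did not overlap.

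The number of genes depended on single libraries. The direction of a gene without overlap is set by the rule that chose it, so leaving out a library cannot check it. Δvps13 replicate 3 was the deletion library nearest to Rut-C30 for 286 of the upper and 494 of the lower genes, and it alone kept a further 702 and 704 genes from lying apart. Without it 1616 genes lay above and 1712 below, and 2139 were called up and 2125 down, which include all 1189 and 1221 genes of the full fit. Without Rut-C30 replicate 2 the calls dropped to 437 up and 524 down, without Rut-C30 replicate 1 to 621 and 618, and without Rut-C30 replicate 3 to 566 and 615. Without Δvps21 replicate 3 the fit called 752 up and 794 down, and without Δvps21 replicate 1 it called 866 and 780.

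**Figure D5:**
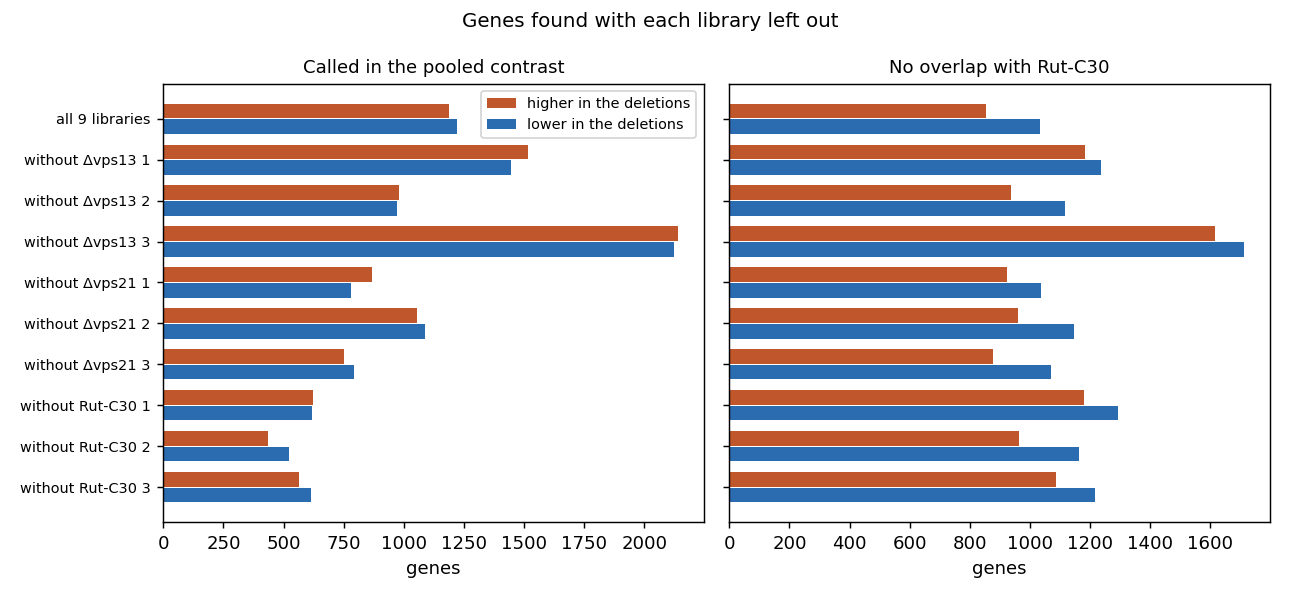
Genes called in the pooled contrast (left) and genes without overlap (right) with all 9 libraries and with each library left out, higher in the deletions in orange and lower in blue. Leaving out Δvps13 replicate 3 gives the highest counts in both panels, and leaving out Rut-C30 replicate 2 gives the fewest calls.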

How the data were processed

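Poly-A RNA from mycelium was sequenced in 9 libraries, 3 per strain. HISAT2 2.0.5 and featureCounts 1.5.0-p3 are the tools named in the submitters' processing notes. The genome build is not given in the sources used here. The authors deposited whole-number counts per gene and a table of FPKM, per kilobase of gene and scaled per library, which served only for 1 alternative. The labels' protocols name no step that marks the strand, so overlapping, antisense and near-identical genes are uncertain. Of 9120 numeric gene identifiers in the deposited table, 9116 matched RefSeq's gene table (assembly v2.0 of strain QM6a). The other 1228 models have their own numbers, and 7046 genes are described only as predicted proteins.

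Genes were filtered with filterByExpr (minimum count 10; 303 genes had no count), scaled by TMM and fitted with edgeR 4.0.16 in R 4.3.3, with 1 mean per strain over all 9 libraries (6 residual degrees of freedom, biological coefficient of variation 0.287). The pooled contrast, each deletion against Rut-C30 and Δvps21 against Δvps13 were tested by quasi-likelihood with Benjamini-Hochberg adjustment over all tested genes, and SE is the log2 divided by the square root of the F value. The fit was also run on simulated data with a common dispersion for all genes and libraries. That setting lacks the wider spread of the Δvps13 libraries, and no result rests on it. No overlap is a description without a test. Gene lists were patterns over names and descriptions, corrected for what they matched, and lists have counts and medians but no test. The members and lists were chosen with earlier results of these data known.

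Named genes were the 12 largest described rises and falls that were called, without overlap and at 10 CPM or more on the higher side, the 2 largest whatever their description, the called member of each list with the largest rise and fall, the 2 most abundant members of 4 lists, known regulators and markers, the genes at the edges of the rule, the 3 largest differences between the deletions each way and the longest run of neighbours. Other list members were named after their values were seen, and 1 gene that the rule names is not reported here. Chi-square per degree of freedom between libraries of a strain was 13.7 to 353, so no library was a repeat of another. Counting intervals are exact, at 95%, and cover counting error only.

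Alternatives were DESeq2 1.42.0, median-ratio size factors, library totals, no filter, a minimum of 10 CPM in 3 of the libraries, a log2 change of at least 1, limma 3.58.1 on log2(FPKM + 1), the 6 deletion libraries as 1 group, calls in both strains' own comparisons, limma voom with sample weights, the replicate number as a block, and leaving out 1 library at a time. Replicate numbers are shared between strains in the labels, which do not say that a number marks a shared culture or day.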

Additional observations from a re-analysis of the deposited data

Results flagged for a closer look

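The log2 difference of Δvps21 from Δvps13, which is also the difference between the strains' own changes from Rut-C30, was called by edgeR's quasi-likelihood test for 28 of the 104 named genes. Many of these genes were picked by values of the same libraries, so the calls describe them and are no independent test. It was positive (higher in Δvps21) for 16 and negative for 12, and it stands in brackets after each gene.

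Of 14 such genes with a positive pooled log2, all had the higher level in Δvps21, and 8 of the 14 lay above Rut-C30 without overlap. They were the amino acid transporter gene TRIREDRAFT_121486 (5.11), the galactose permease gene TRIREDRAFT_106556 (4.69), the amidase gene TRIREDRAFT_109378 (3.65), the class II hydrophobin gene TRIREDRAFT_106538 (3.39) and the undescribed gene TRIREDRAFT_112258 (3.12). The multicopper oxidase gene TRIREDRAFT_124079 (2.83), the peptidase M20 gene TRIREDRAFT_60581 (2.83), the cell wall protein gene TRIREDRAFT_123659 (1.49) and the alpha-tubulin gene TRIREDRAFT_120830 (1.38) were others. Smaller differences were those of the exosomal RNA helicase gene TRIREDRAFT_49059 (0.99), the DEAD-domain genes TRIREDRAFT_54064 (1.06) and TRIREDRAFT_61550 (0.91), the N-methyltransferase gene TRIREDRAFT_56354 (0.96) and the sorting nexin gene TRIREDRAFT_106014 (0.91).

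Of 14 such genes with a negative pooled log2, 12 were lower in Δvps21. They were the rab5-like gene TRIREDRAFT_123015 (-9.49), the amino acid transporter gene TRIREDRAFT_123718 (-6.60), the family 18 carbohydrate-binding module gene TRIREDRAFT_109235 (-3.31) and the family 2 glycoside hydrolase genes TRIREDRAFT_59689 (-2.08) and TRIREDRAFT_76852 (-1.80). The rab5-like gene was nearly without reads in Δvps21, as a deleted gene would be. The NACHT-domain gene TRIREDRAFT_62121 (-2.41), the NACHT-domain model 1187 (-1.68), the P450-domain gene TRIREDRAFT_103147 (-2.25) and the alcohol oxidase gene TRIREDRAFT_123978 (-1.52) were others, with the trypsin-like protease gene TRIREDRAFT_73897 (-1.43), the family 36 gene TRIREDRAFT_64827 (-1.19) and the dehydrogenase gene TRIREDRAFT_123946 (-0.89). The Mn superoxide dismutase gene TRIREDRAFT_66345 (0.96) and the family 12 gene TRIREDRAFT_77284 (0.94) were lower in Δvps13.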

How the results depend on the processing

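Under TMM 1189 genes were called up and 1221 down, 853 and 1035 lay apart, 705 and 852 did both, and 237 of those apart differed between the deletions. With library totals the calls were 514 and 1901, those apart 259 and 1855, and both 216 and 1546; this scaling shifts the median of all genes. An absolute log2 of 1 or more left 658 and 737 calls, and 392 and 541 apart as well. As 1 group of 6, the deletion libraries gave 506 and 524, and 450 and 516. Calls in both strains' own comparisons numbered 320 and 304, and 306 and 303. Limma voom with sample weights called 2683 and 2775, with 569 between the deletions, and weighted Δvps13 replicates 1, 2 and 3 at 0.187, 2.73 and 0.171. DESeq2 found 369 between the deletions. With 1 library left out, calls up ran from 437 to 2139 and down from 524 to 2125, genes above from 876 to 1616 and below from 1036 to 1712, both up from 347 to 1490 and both down from 460 to 1590, and genes differing between the deletions from 92 to 601. The causes were not tested. Median-ratio factors, no filter, 10 CPM in 3 libraries and limma on log2(FPKM + 1) kept every such count within 1.5 times. Of 1856 recomputed values of named genes, 1701 kept direction and side of the threshold, 132 lost a call, 23 gained one and none reversed. Many of these genes were picked by values of the same libraries, so their kept direction is no independent check.

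The replicate block called 1125 up and 1241 down. Deviations of same-numbered libraries correlated at -0.103 to 0.512, and those of differently numbered libraries at -0.454 to 0.448. Not every library correlated best with its own number. Deviations from means of 3 libraries cannot show whether a number marks a shared culture or day, so pairing stays unknown. Depth limits genes near 0 in 1 group, whose ratios rest on few counts.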

Other observations

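Genes of acetate use, the glyoxylate cycle and gluconeogenesis were put together after the values were seen. Of 7 such genes 6 were called up, all 6 without overlap, and none down. Among all tested genes 13.4% were called up, 7.92% were called up without overlap and 13.7% were called down. The phosphoenolpyruvate carboxykinase gene TRIREDRAFT_124115, for the entry enzyme of gluconeogenesis, had 9297, 9039.7 and 2078 CPM in Δvps13 and 3757, 2418 and 3890.2 CPM in Δvps21, against 1491, 1414 and 1389 CPM in Rut-C30 (log2 1.74 ± 0.45, adjusted p = 0.0172). The fructose-bisphosphatase gene TRIREDRAFT_65508, for a later step of the same pathway, had 379, 435 and 86.4 CPM in Δvps13 and 396, 327 and 512 CPM in Δvps21, against 68.4, 69.3 and 77.5 CPM in Rut-C30 (log2 2.29 ± 0.44, adjusted p = 0.0043). The gene acs1, for the acetyl-CoA synthetase that activates acetate, had 6061, 1817 and 1230.0 CPM in Δvps13 and 1981, 1159 and 1509 CPM in Δvps21, against 533, 572 and 552 CPM in Rut-C30 (log2 1.97 ± 0.48, adjusted p = 0.0128). Its call was lost without Rut-C30 replicate 1, 2 or 3 (adjusted p = 0.0598, 0.0628 and 0.0561). The succinate-fumarate carrier gene TRIREDRAFT_121743, whose product links the glyoxylate cycle to mitochondria, had 1024, 340.5 and 201 CPM in Δvps13 and 369, 195 and 279.8 CPM in Δvps21, against 83.9, 52.1 and 65.2 CPM in Rut-C30 (log2 2.51 ± 0.49, adjusted p = 0.00468). The isocitrate lyase gene acu3, of the glyoxylate cycle, had 3423, 2229.7 and 1563 CPM in Δvps13 and 1175, 617 and 909 CPM in Δvps21, against 892, 857 and 849 CPM in Rut-C30 and was not called (log2 0.77 ± 0.30, adjusted p = 0.0797).

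Of the 45 protein domain families with 12 or more tested genes in the deposited annotation, 6 had 30% or more of their genes called 1 way, and they are given here because of those values. The shares over all tested genes were 13.4% up and 13.7% down. Mitochondrial carriers, which move metabolites over the inner membrane, had 15 called up and none down among 34 (median log2 0.52), but 7 up with library totals, and 7, 5 and 7 up without Rut-C30 replicate 1, 2 and 3 in turn. DEAD-box helicases, which remodel RNA, had 13 up and 3 down among 29, and 1 up with library totals. Their calls up were 4, 3 and 3 without Rut-C30 replicate 1, 2 and 3, 8 without Δvps13 replicate 2 or Δvps21 replicate 1, 7 without Δvps21 replicate 3 and 21 without Δvps13 replicate 3. DnaJ proteins, partners of Hsp70 chaperones, had 8 up and 1 down among 18, with 3 up without any 1 of the Rut-C30 libraries, 5 without Δvps13 replicate 2 and 4 without Δvps21 replicate 1 or 3. P-type ATPases had 5 up and none down among 15, with 3 up without any 1 of the Rut-C30 libraries or Δvps21 replicate 3, and 8 without Δvps13 replicate 3. Among them the calcium pump gene TRIREDRAFT_120627 had 131, 203 and 154 CPM in Δvps13 and 218, 239 and 351 CPM in Δvps21, against 69.9, 78.4 and 81.4 CPM in Rut-C30 (log2 1.45 ± 0.22, adjusted p = 0.00139). Genes with a NACHT domain, a nucleotide-binding domain found in fungal self-recognition proteins, had 11 down and none up among 20 (median -1.12), and 9 to 14 down with 1 library left out. Cytochrome P450 genes had 16 down and 1 up among 49, 7, 3 and 3 down without Rut-C30 replicate 1, 2 and 3, 9 and 8 down without Δvps21 replicate 1 and 3, and 1 down with the 6 deletion libraries as 1 group.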
